A study of Rattus norvegicus with 4 samples.

Results

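The platelet-derived growth factor (PDGF) genes examined here are the 4 ligand genes Pdgfa, Pdgfb, Pdgfc and Pdgfd and the 2 receptor genes Pdgfra and Pdgfrb. They were taken by gene symbol from a table of 32623 rat genes, and each of the 6 symbols had 1 row. Their transcripts were counted by RNA sequencing of TSPCs from rat tendon, the stem and progenitor cells that tendon yields in culture. The 4 libraries were 2 from cells given U0126, which inhibits the kinase MEK and so the activation of ERK, and 2 from control cells given the solvent DMSO. Neither the dose nor the exposure time is given in the sources used here, nor the strain, age or number of the rats. The libraries are numbered as replicates within each group, but the labels do not say which culture or animal gave each. All p-values rest on the spread between libraries, which may be technical.

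PDGFs are secreted as dimers joined by disulfide bonds and act on receptor tyrosine kinases of class III. PDGF-A and PDGF-C bind mainly receptor alpha, PDGF-D binds mainly receptor beta, and PDGF-B binds both. PDGF-A and PDGF-B are cut by furin-like convertases inside the cell, while PDGF-C and PDGF-D carry a CUB domain that proteases remove outside it before they can bind. Ligand binding dimerises the receptor and recruits adaptors that feed the Ras-ERK, PI3K and phospholipase C gamma pathways, so the receptors lie upstream of the kinase that U0126 inhibits. In connective tissue PDGFs drive the division and migration of fibroblasts and pericytes, and in the mouse tendon sheath Pdgfra, with Tppp3, marks a stem cell population.

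Among the ligands, the transcripts of both CUB-domain forms were higher with U0126, Pdgfd 3.70-fold and Pdgfc 2.10-fold. Of the receptors, Pdgfrb was 1.38-fold higher. The levels of Pdgfa, Pdgfb and Pdgfra did not pass the test. Of the 6 genes, 3 rose and 0 fell by edgeR's quasi-likelihood test at an adjusted p under 0.05. At an unadjusted p under 0.05, 4 were higher and 1, Pdgfb, was lower, and DESeq2 called 4 higher and 0 lower. Over all 14023 genes tested, 19.9% were called in either direction, 8.41% as higher and 11.5% as lower. The median log2 fold change was 0.43 over the 6 genes and 0.02 over all genes tested. All 6 passed the filter on low counts, Pdgfb through its control libraries. Levels of 1 gene across libraries are given in CPM, the gene's counts relative to the library's total count as scaled by edgeR's TMM factors, and levels between genes in TPM, which is also relative to transcript length.

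**Figure D1:**
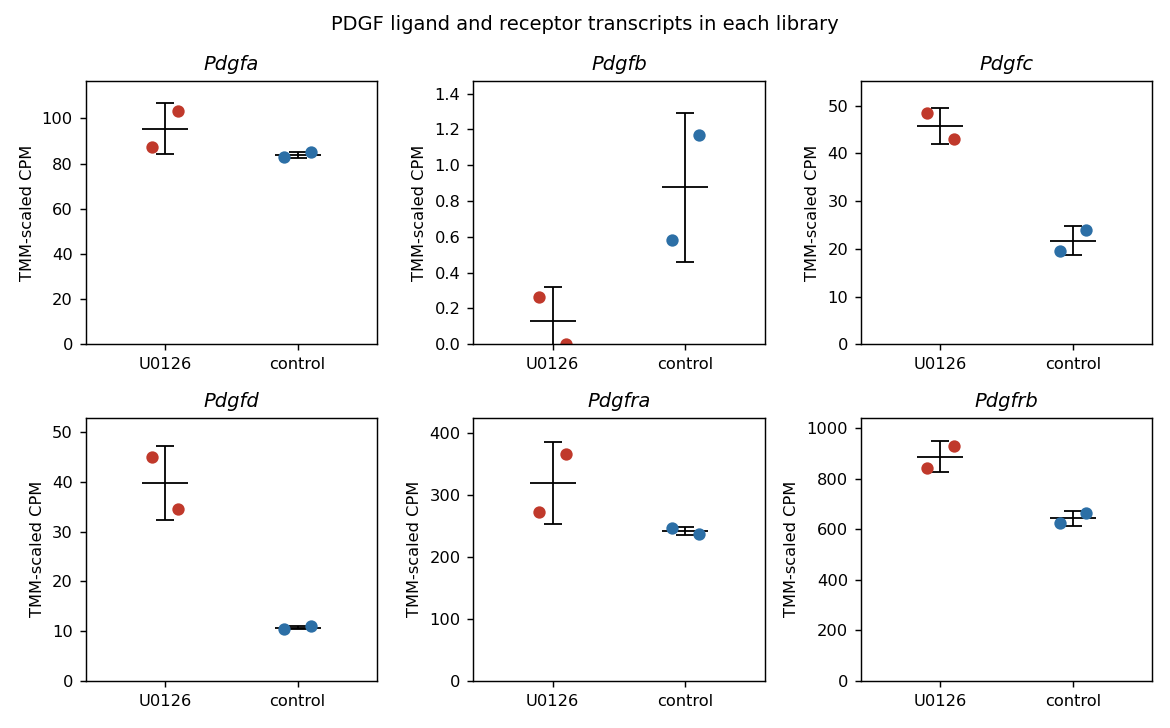
Each panel shows 1 gene, with TMM-scaled CPM on an axis that starts at 0; points are libraries, horizontal lines the group means and error bars the SD over 2 libraries (cut off at 0 for Pdgfb). The U0126 points of Pdgfc, Pdgfd and Pdgfrb lie well above both controls, while those of Pdgfra and Pdgfa start just above them.

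Total counts per library were between 36888913 and 42785190, and the 6 genes together took between 39029 and 53503 of them. The ERK phosphatase gene Dusp6 and the ETS factor gene Etv4, both transcribed downstream of ERK, were lower in the U0126 libraries (log2 fold change -0.91 and -1.99), and the feedback inhibitor Spry4 did not pass (-0.30; edgeR adjusted p = 0.0896), although it passed as lower once U0126 replicate 2 was left out (-0.41; edgeR adjusted p = 0.0106, with 0.471 the highest over the alternatives). The proliferation genes Mki67, Plk1 and Mcm5 were lower with log2 fold changes of -3.15, -3.25 and -2.98. Of 8 tested tendon and fibroblast markers, 5 rose and 3 did not pass, while 8.41% of all genes tested rose. The 5 were Scx, Fmod, Dcn, Lum and Col3a1, picked from the list by this result. Of these 5, Fmod kept its call in all 11 alternatives, while Scx and Lum lost it with either control left out (edgeR adjusted p up to 0.0893 and 0.163), Lum also under DESeq2 (0.0611), Dcn without control replicate 2 (0.143) and Col3a1 without control replicate 1 (0.0535). Col1a1 was at 22235 ± 2416 CPM with U0126 and 22420 ± 1905 CPM in controls (SD, n = 2 each). The mature tendon marker Tnmd had at most 5 counts in any library and was not tested. The spread within the U0126 pair was wider than within the control pair, the SD over genes of the log2 difference being 0.51 for U0126 and 0.39 for control.

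The annotated promoter windows of the 2 ligand genes that rose are shown with that of Pdgfa, the most abundant ligand transcript. They are given because U0126 blocks a pathway that ends on transcription factors. Each window runs from 250 bases before the RefSeq transcript start to 50 after it, on the gene's own strand, 5′ to 3′, in the rat build GRCr8; 5 of the 6 genes were matched by symbol in the RefSeq promoter table, and Pdgfrb was not. Capitals mark matches to the Sp1 GC box GGGCGG on either strand. In the Pdgfc window the last 50 bases begin with atg and hold no stop codon in that frame. The annotated Pdgfc start may therefore be the start of the coding sequence, with the promoter further upstream. The windows are chr8:11773258-11773557 for Pdgfd, chr2:168614918-168615217 for Pdgfc and chr12:20759116-20759415 for Pdgfa, all on the plus strand.
Pdgfd: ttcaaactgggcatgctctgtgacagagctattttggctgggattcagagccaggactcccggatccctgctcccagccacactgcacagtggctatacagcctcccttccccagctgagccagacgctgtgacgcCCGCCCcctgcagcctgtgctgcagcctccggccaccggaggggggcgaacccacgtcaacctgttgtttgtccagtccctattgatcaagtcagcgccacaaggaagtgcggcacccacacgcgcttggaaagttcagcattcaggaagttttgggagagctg
Pdgfc: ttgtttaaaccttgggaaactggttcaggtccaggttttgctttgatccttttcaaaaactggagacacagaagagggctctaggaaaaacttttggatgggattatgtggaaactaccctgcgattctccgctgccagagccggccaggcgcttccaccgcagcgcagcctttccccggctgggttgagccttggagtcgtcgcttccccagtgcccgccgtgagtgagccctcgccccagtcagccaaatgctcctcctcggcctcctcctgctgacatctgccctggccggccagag
Pdgfa: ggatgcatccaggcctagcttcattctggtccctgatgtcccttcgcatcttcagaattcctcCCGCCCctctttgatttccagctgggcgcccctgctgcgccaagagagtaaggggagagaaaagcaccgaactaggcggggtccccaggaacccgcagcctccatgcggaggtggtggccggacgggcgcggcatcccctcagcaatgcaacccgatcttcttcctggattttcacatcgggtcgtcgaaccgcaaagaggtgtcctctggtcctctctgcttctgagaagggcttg

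The search covered 7 motifs on both strands: the Egr1 sites GCGTGGGCG and GCGGGGGCG, the GC box, the AP-1 sites TGAGTCA and TGACTCA (each the reverse complement of the other), the ETS core GGAA and the CCAAT box. Pdgfd, Pdgfa and Pdgfb each held 1 GC box, at 114, 187 and 207 bases before the start, and Pdgfc and Pdgfra held none. A GC box was present in 33.1% of all 33469 promoter windows of this length. Pdgfra held the only CCAAT box of the 5 windows, on the minus strand, against 37.5% of all windows. None of the 5 windows held either Egr1 site (found in 0.544% and 2.73% of all windows) or an AP-1 site (4.63%). The ETS core occurred in all 5, and in 95.8% of all windows. These matches describe letters in the window and say nothing of binding. For Pdgfc the window may not hold the promoter.

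Pdgfd encodes a ligand of receptor beta. The gene lies on chromosome 8 from 4440876 to 4669014 (rn6, plus strand). Its level was 44.9 and 34.5 CPM in the U0126 libraries, against 10.5 and 11.0 CPM in the controls. Both U0126 libraries were over 3 times as high as either control, and the groups did not overlap. The log2 fold change was 1.89 ± 0.15 SE, with a 95% interval of 1.53 to 2.25 (edgeR adjusted p = 4.24e-04). It ranked 225th from the top of all 14023 genes tested by log2 fold change. Ddi1, annotated on the other strand within the Pdgfd interval, had at most 10 counts in any library, against 416 to 1705 for Pdgfd.

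Pdgfc encodes a ligand of receptor alpha and lies on chromosome 2 from 179952227 to 180128283 (rn6, plus strand). Its level was 48.4 and 43.002 CPM with U0126, against 19.5 and 23.9 CPM in the controls. The 2 groups were far apart relative to the gap within either of them. This is a log2 fold change of 1.07 ± 0.13 SE, with a 95% interval of 0.76 to 1.39 (edgeR adjusted p = 0.00220). A larger change in either direction was seen in 10.4% of the genes tested, against 4.51% for Pdgfd. The calls of Pdgfc and Pdgfd held in each of 11 alternative settings, with log2 fold changes of 0.93 to 1.23 and 1.69 to 2.06.

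Pdgfa encodes the other main ligand of receptor alpha and lies on chromosome 12 from 17734133 to 17755285 (rn6, plus strand). Its level was 87.4 and 103 CPM with U0126, against 82.9 and 84.9 CPM in the controls. The first U0126 library stood just above the controls and the second further up. The log2 fold change of 0.18 ± 0.11 SE did not pass (edgeR adjusted p = 0.273), and its 95% interval ran from -0.07 to 0.44. With U0126 replicate 1 left out it passed as higher at 0.30 (edgeR adjusted p = 0.0305, the lowest over its alternatives, which reached 0.702), and with U0126 replicate 2 left out it was 0.05.

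Pdgfb, whose product binds both receptors and is a classical product of platelets and endothelial cells, was close to the detection limit. The gene lies on chromosome 7 from 121214628 to 121232741 (rn6, minus strand). It had 10 and 0 counts in the U0126 libraries, against 23 and 51 counts in the controls, or 0.264 and 0 CPM against 0.580 and 1.17 CPM. A count of 0 in U0126 replicate 2 allows a level of up to 0.0829 CPM (a floor of 3 counts, covering counting error only). Both U0126 libraries lay below both controls, but the controls themselves differed by more than the lower control differed from the higher U0126 library. The log2 fold change was -2.69 ± 0.97 SE with a 95% interval of -4.98 to -0.39, and the test was not passed (edgeR adjusted p = 0.1001). Over the alternatives the edgeR adjusted p lay between 0.00915, without U0126 replicate 1, and 0.479. In the setting with the lowest p the remaining U0126 library had 0 counts, so that its fitted log2 fold change of -8.13 depends on the prior count; it was -1.74 without U0126 replicate 2.

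Endothelial and platelet markers, measured for comparison with Pdgfb, were also low. The 6 endothelial markers in the table summed to 1.19 and 0.414 CPM with U0126, against 2.65 and 1.95 CPM in the controls, and Cdh5 and Tie1 had 0 counts in all 4 libraries. Of 2 that could be tested, 1 fell (Flt1), which passed the filter on low counts through its control libraries. The 4 platelet and megakaryocyte markers summed to 0.0791 and 0.856 CPM with U0126, against 0.328 and 0 CPM in the controls, with Itga2b the most abundant, and none could be tested. The part of such cells in the Pdgfb counts was not tested. In bulk RNA, fewer cells of a type and less RNA per cell cannot be told apart.

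**Figure D2:**
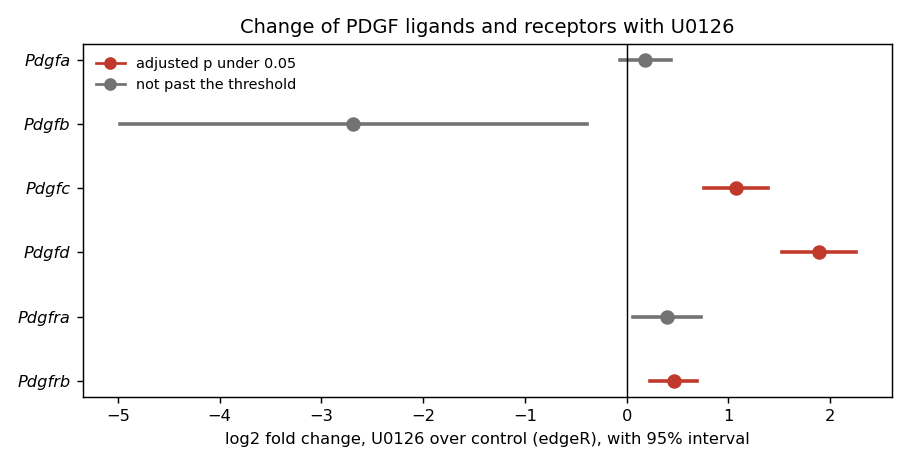
Points give the log2 fold change of each gene, U0126 over control, and lines its 95% interval from edgeR; red marks an adjusted p under 0.05. The intervals of Pdgfc, Pdgfd, Pdgfrb and Pdgfra lie above 0, that of Pdgfa spans 0, and that of Pdgfb is the widest of the 6.

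Pdgfrb encodes receptor beta, which binds PDGF-B and PDGF-D and is the receptor of pericytes and many fibroblasts. The gene lies on chromosome 18 from 56364620 to 56406381 (rn6, plus strand). Its level was 843 and 930 CPM with U0126, against 623 and 665 CPM in the controls. The groups did not overlap, and the gap between them exceeded the gap within either. On the log2 scale the difference was 0.46 ± 0.10 SE, with a 95% interval of 0.23 to 0.69 (edgeR adjusted p = 0.0164). The call was lost without control replicate 1 (edgeR adjusted p = 0.169) or control replicate 2 (0.105), where the log2 fold changes were 0.41 and 0.51, and held in the other 9 alternatives, down to 3.31e-04. Genes with a larger absolute change made up 30.6% of those tested.

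Pdgfra encodes receptor alpha, the receptor of PDGF-A and PDGF-C. It lies on chromosome 14 from 35527927 to 35581031 (rn6, minus strand). Its level was 273 and 367 CPM with U0126, against 247 and 237 CPM in the controls. The U0126 libraries differed from each other by more than the lower of them differed from the controls. The log2 fold change of 0.40 ± 0.14 SE did not pass (edgeR adjusted p = 0.0951), although its 95% interval of 0.06 to 0.73, not adjusted for the number of genes, lay above 0. It passed as higher under DESeq2 (adjusted p = 0.0475) and without U0126 replicate 1 (edgeR adjusted p = 9.85e-04, log2 fold change 0.60), and reached an adjusted p of 0.388 in other alternatives. It was 0.16 with U0126 replicate 2 left out. An annotated gene that overlaps Pdgfra on the same strand had 1 count in each library.

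The U0126 and control CPM of a gene did not overlap for any of the 6, with U0126 higher for 5 and lower for 1. The same held for 62.8% of all genes tested, and 31.8% were higher without overlap.

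Levels of different genes were compared per length, on the deposited TPM scale. In each of the 4 libraries the order was Pdgfrb, Pdgfa, Pdgfra, Pdgfc, Pdgfd and Pdgfb, from high to low. Pdgfrb had 310 and 350 TPM with U0126, against 236 and 264 TPM in the controls. Pdgfa had 119 and 141 TPM with U0126, against 115 and 121 TPM in the controls. Within each group, no gene's range of TPM met that of its neighbour in this order. At the low end Pdgfd had 21.7 and 16.8 TPM with U0126, against 5.44 and 5.58 TPM in the controls, and Pdgfb stayed under 1 TPM in all 4 libraries. By mean TPM over the 4 libraries, Pdgfrb was above 97.2% and Pdgfb above 23.2% of the genes that had a count.

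The 4 ligand transcripts summed to 178 and 191 TPM with U0126, against 137 and 147 TPM in the controls. Pdgfa made up 66.5% and 73.6% of that sum with U0126, against 84.0% and 82.3% in the controls. Pdgfc made up 21.2% and 17.6% with U0126, against 11.7% and 13.2% in the controls. Pdgfd made up 12.1% and 8.78% with U0126, against 3.97% and 3.78% in the controls. The shares of all 3 were apart between the groups, in a mixture that held more of the CUB-domain ligands and a smaller share of Pdgfa with U0126. With 2 libraries against 2, an exact two-sided permutation test cannot go below p = 0.333, so these shares are a description.

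**Figure D3:**
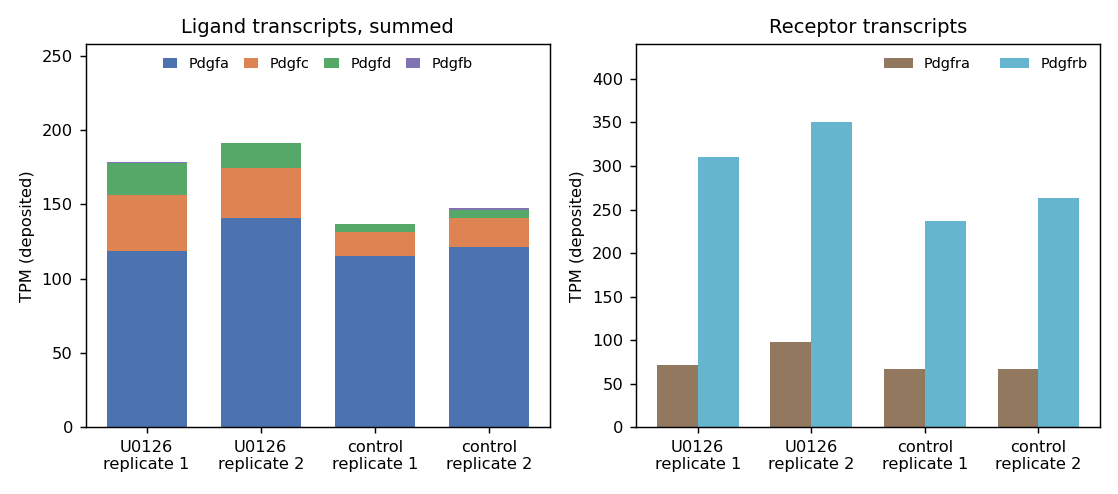
Stacked bars (left) give the TPM of the 4 ligands and paired bars (right) that of the 2 receptors in each library, on axes from 0. The Pdgfc and Pdgfd segments are taller in both U0126 libraries, the Pdgfa segment differs less, and Pdgfrb exceeds Pdgfra in every library.

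The ratio of Pdgfra to Pdgfrb, which does not depend on library scaling, was 0.232 and 0.279 with U0126, against 0.283 and 0.253 in the controls. The groups overlapped, and receptor beta transcripts were the more abundant in every library. The log2 ratio was lower by 0.08 with U0126 (log2 difference -0.08, exact permutation p = 0.667, two-sided, n = 2 each), which was within the pooled SD of 0.16. This permutation test cannot go below p = 0.333, so it could not have shown a change, and the ratio is a description.

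Other genes of the PDGF pathway were read from lists sorted by role. Of 10 tested genes for ligand processing, binding and co-receptors, 3 rose and 0 fell, against 8.41% and 11.5% of all genes tested. At an unadjusted p under 0.05, 1 was lower, and DESeq2 called 0 lower. The median log2 fold change of the list was 0.05. The proprotein convertase Pcsk5, which can cut PDGF-A and PDGF-B, was at 37.6 and 24.7 CPM with U0126, against 4.54 and 4.96 CPM in the controls. Every U0126 value was several times the controls, a 6.55-fold rise (log2 fold change 2.71 ± 0.22 SE; edgeR adjusted p = 4.30e-04). Furin, the other convertase on the list, did not pass (log2 fold change -0.18 ± 0.10 SE; edgeR adjusted p = 0.252), except as lower once U0126 replicate 2 was left out (-0.30; edgeR adjusted p = 0.0273, with 0.665 the highest over the alternatives). Sparc, a matrix protein that binds PDGF-B, rose 1.63-fold (log2 fold change 0.70 ± 0.09 SE). Lrp1, an endocytic receptor that associates with receptor beta, rose 1.36-fold (edgeR adjusted p = 0.0306). With control replicate 1 left out its edgeR adjusted p was 0.231 and with control replicate 2 left out 0.0679, and the lowest over the alternatives was 0.00244.

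The proteases that release active PDGF-C and PDGF-D, the co-receptors Nrp1 and Cspg4, and Furin were picked for their roles, with their values already known. Plat, the tissue plasminogen activator that activates PDGF-C, was at 107 and 185 CPM with U0126, against 263 and 213 CPM in the controls (log2 fold change -0.71 ± 0.24 SE; edgeR adjusted p = 0.0825). The groups did not overlap, but the U0126 pair spread widely, and Plat passed as lower once U0126 replicate 2 was left out (edgeR adjusted p = 1.69e-04, log2 fold change -1.16; the highest over the alternatives was 0.358). Plau, the urokinase that activates PDGF-D, was at 5.72 and 13.4 CPM with U0126, against 9.53 and 7.24 CPM in the controls. The U0126 values of Plau lay on either side of both controls, and its log2 fold change was 0.68 without U0126 replicate 1 (edgeR adjusted p = 0.0228) and -0.56 without U0126 replicate 2. St14, the protease matriptase, which also acts on PDGF-D, stayed at 2.48 to 3.04 CPM in all 4 libraries. For the co-receptors Nrp1 and Cspg4 the log2 fold changes were 0.27 and -0.37, and neither passed (edgeR adjusted p = 0.0948 and 0.150). Each did so in at least 1 alternative, Nrp1 as higher without U0126 replicate 1 (edgeR adjusted p = 0.0271; up to 0.509) and Cspg4 as lower once U0126 replicate 2 was left out (edgeR adjusted p = 0.00418; up to 0.593) and with the replicate block (0.0403).

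Among adaptors and effectors that bind the phosphorylated receptors, 21 genes were tested. Of these, 2 were higher, 1 was lower and 18 were not past the threshold. Over all genes tested, 19.9% were called in either direction. The median log2 fold change of the list was -0.08. Fyn, a Src-family kinase, was at 23.8 and 22.7 CPM with U0126, against 14.5 and 15.05 CPM in the controls (1.57-fold; edgeR adjusted p = 0.00922). The docking protein gene Gab1 rose 1.51-fold (edgeR adjusted p = 0.0308). Stat5b, a signal transducer and transcription factor, fell 1.34-fold (edgeR adjusted p = 0.0334). None of these 3 passed with either control library left out, where their edgeR adjusted p lay between 0.105 and 0.303, and Gab1 and Stat5b missed it with the replicate block (0.0510 and 0.0589); the lowest values over the alternatives were 5.79e-04 for Fyn, 0.00838 for Gab1 and 0.0106 for Stat5b.

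Of 10 tested genes for phosphatases, ubiquitin ligases and scaffolds that act on the receptors, 1 fell and 0 rose. Of all genes tested, 11.5% fell and 8.41% rose. At an unadjusted p under 0.05 and by DESeq2, 0 genes of the list rose as well. The median log2 fold change of the list was -0.24. The adaptor Sh2b3, an inhibitor of receptor kinase signalling, was at 51.8 and 66.0 CPM with U0126, against 86.9 and 89.8 CPM in the controls. Both U0126 values were lower than both controls, a 1.501-fold fall (edgeR adjusted p = 0.0193). With either control left out Sh2b3 did not pass (edgeR adjusted p = 0.116 and 0.152; down to 2.27e-04 elsewhere). The number called in this list was 2 with library totals alone, 2 with limma-voom, 3 with DESeq2 and 3 with the replicate block, all as lower.

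Other receptors of class III, and receptors of class V, were scarce in these cells. Of 6, the counts of 3 (Kit, Flt3 and Kdr) were too low to test. Of the 3 tested, Flt1, a VEGF receptor, fell at very low levels (edgeR adjusted p = 0.0120). It was at 0.395 and 0.249 CPM with U0126, against 1.87 and 1.38 CPM in the controls. Flt1 passed the filter on low counts through its control libraries, with 74 and 60 counts, against 15 and 9 counts with U0126. Its call was lost without control replicate 1 or 2 (0.139 and 0.0695; down to 0.00249 elsewhere). The list had 1 lower and 0 higher genes (0 also at an unadjusted p under 0.05 and by DESeq2). Of all genes tested, 11.5% were lower and 8.41% higher. The median log2 fold change of the list was -1.45. The 6 receptors of this list summed to between 0.773 and 3.40 CPM per library, while Pdgfrb alone had 623 CPM or more in each.

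Among 11 tested transcription factors described at PDGF genes, 1 rose and 1 fell, against 8.41% and 11.5% of all genes tested. The median log2 fold change of the list was -0.14. Klf5, a Krüppel-like factor described at the Pdgfa gene, was at 9.89 and 11.4 CPM with U0126, against 5.80 and 5.90 CPM in the controls (1.82-fold; edgeR adjusted p = 0.0101). Egr1, an immediate early factor described at Pdgfa and Pdgfb, was at 58.8 and 107 CPM with U0126, against 146 and 163 CPM in the controls (edgeR adjusted p = 0.0428). Both Egr1 values with U0126 were below both controls, but the pair spread widely. The Klf5 call was lost without control replicate 1 or 2 (0.108 and 0.103; down to 0.00136 elsewhere) and that of Egr1 in the same settings (0.131 and 0.210; down to 1.45e-05 elsewhere) and under DESeq2 (0.124).

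**Figure D4:**
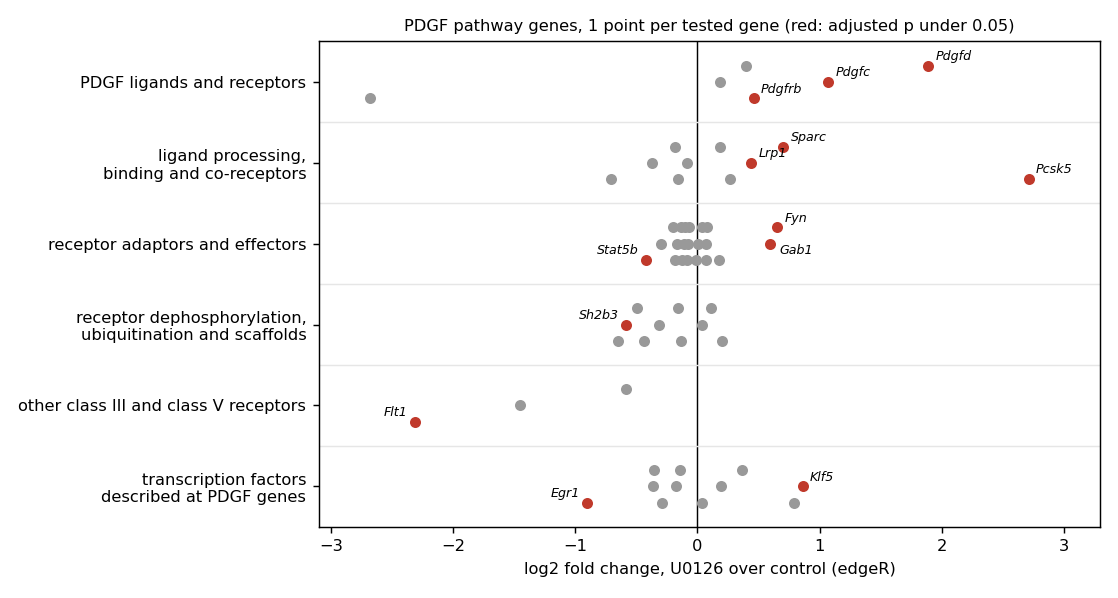
Each point is 1 tested gene, placed by its log2 fold change, U0126 over control, in rows by list; red points had an edgeR adjusted p under 0.05 and carry the gene's name. Most adaptors and effectors lie within a narrow band around 0, and Pcsk5 (2.71) lies furthest to the right.

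Pdgfrb also marks pericytes and smooth muscle cells, so their markers were read beside it. All 9 markers were in the table and 8 were tested, of which 3 rose and 4 fell, against 8.41% and 11.5% of all genes tested. The list summed to 4582 and 5405 CPM with U0126, against 8134 and 8515 CPM in the controls, and most of that was Acta2 (4204 ± 518 CPM with U0126 and 7374 ± 148 CPM in controls, SD, n = 2 each). The risers, picked from the list by this result, were the potassium channel subunits Kcnj8 and Abcc9 and the receptor Notch3 (log2 fold change 4.40, 2.08 and 0.92), and those that fell were Acta2, Mcam, Myh11 and Des. Kcnj8, Abcc9, Acta2 and Mcam kept their calls in all 11 alternatives. Notch3 and Des lost theirs without control replicate 1 (edgeR adjusted p = 0.0868 and 0.0935), and Myh11 lost its call with either control left out (0.0589 and 0.288) and without U0126 replicate 1 (0.0508). Rgs5, a pericyte marker, was too low to test at 0.201 ± 0.0506 CPM with U0126 and 0.305 ± 0.218 CPM in controls. The part of such cells, and of the fall in proliferation genes, in the changes of the PDGF genes was not tested.

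Markers of other cell types were mostly near 0. The 5 macrophage and leukocyte markers in the table summed to 11.5 and 11.2 CPM with U0126, against 14.1 and 13.0 CPM in the controls, most of it Cd14, and Ptprc had 0 counts in every library. Of 4 tested there, Adgre1 fell, at under 1 CPM in each library (edgeR adjusted p = 0.0315). It passed the filter on low counts through its control libraries, with 23 and 16 counts, against 2 and 0 counts with U0126. The Adgre1 call was lost in 5 of 10 alternatives. The skeletal muscle markers summed to 3.35 and 3.65 CPM with U0126, against 12.4 and 9.60 CPM in the controls. Of these, 3 of 3 tested were lower (Myod1, Cdh15 and Des, the most abundant), against 11.5% of all genes tested. Myod1 passed the filter on low counts through its control libraries, with 84 and 82 counts, against 9 and 3 counts with U0126. Pax7 was at 0 counts. Myog, too low to test, went the other way, with 25 and 8 counts with U0126, against 6 and 0 counts in the controls. Of the Schwann cell markers, S100b was at 41.0 and 24.6 CPM with U0126, against 12.7 and 7.17 CPM in the controls, and was higher with U0126 (log2 fold change 1.73; edgeR adjusted p = 0.0105), except without control replicate 2 (1.37; edgeR adjusted p = 0.0595), while Sox10 had 0 counts in every library. The adipocyte markers, of which Fabp4 was the most abundant, stayed under 1 CPM in sum in each library. The part of these cell types in the changes of the PDGF genes was not tested either.

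Profiles over the 4 libraries were compared with those of 8448 named genes that had a mean log2 CPM of at least 3. The genes whose levels followed each PDGF gene most closely were found by the Euclidean distance of centred log2 CPM. For Pdgfd they were Pik3ip1, an inhibitor of PI3K (distance 0.04), and Tril (0.08). Pik3ip1 was at 17.6 and 13.5 CPM with U0126, against 4.21 and 4.30 CPM in the controls. For Pdgfc they were the taurine transporter gene Slc6a6 (0.08) and the scaffold gene Nedd9 (0.11). For Pdgfrb they were Xpot, a tRNA exporter (0.03), and Secisbp2 (0.05). For Pdgfa the nearest were Tm7sf2 and Cpe (0.01 each), and for Pdgfra Slc6a9 (0.06) and Lrp4 (0.09). The nearest to Pdgfb, Ect2 and Top2a, were far off at 1.19 and 1.30. Pdgfb itself lay below the minimum level, so genes as scarce as Pdgfb were not among the candidates. With 4 libraries, these distances only describe which levels ran alike.

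**Figure D5:**
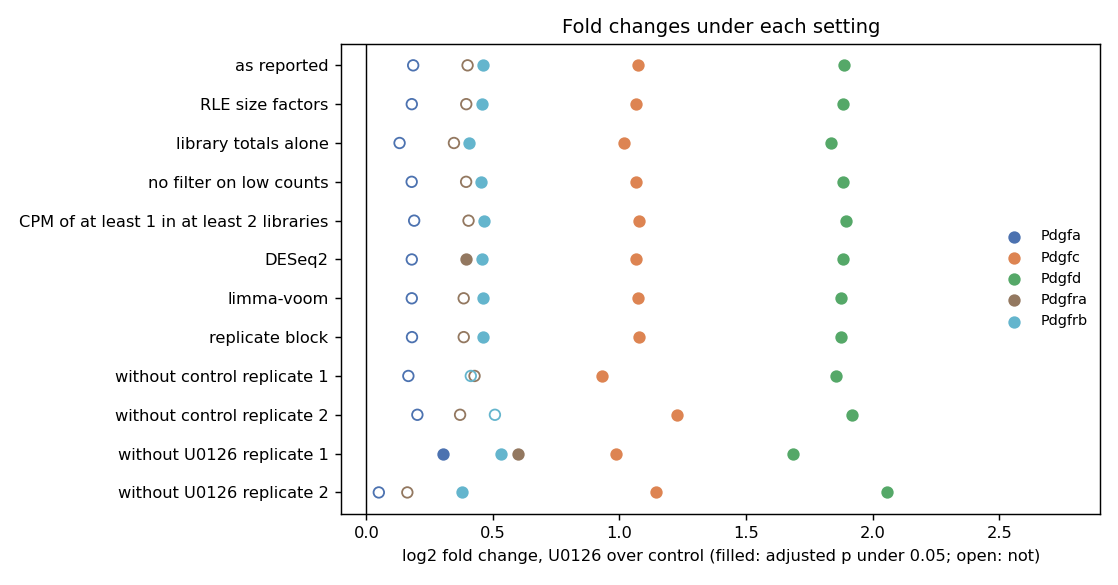
The log2 fold change, U0126 over control, of 5 of the 6 genes is shown in each processing setting; filled points had an adjusted p under 0.05 and open points did not. Pdgfb is left out because its count of 0 in 1 library makes the value depend on the prior count. Pdgfc and Pdgfd are filled in all 12 settings, and Pdgfra spans 0.16 to 0.60 as the U0126 libraries are left out in turn.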

How the data were processed

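RNA of rat TSPCs was sequenced in 2 U0126 and 2 control libraries, grouped by the treatment label, and 1 table lists counts, TPM and FPKM by gene. The counts the authors deposited are whole and carry no normalization. The deposited TPM and the deposited FPKM values are scaled by gene length and library size, per the file headers. Coordinates are in rn6, per the submitters' processing notes, and the sources used here name no aligner, counter, strand setting or annotation release, so reads of overlapping antisense genes cannot be told apart.

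The filterByExpr step of edgeR kept 14023 genes (minimum count 10, minimum total 15). The test was edgeR's quasi-likelihood F test on U0126 over control with TMM scaling (edgeR 4.0.16, limma 3.58.1, DESeq2 1.42.0, R 4.3.3), two-sided, with Benjamini-Hochberg adjustment over all tested genes. Log2 fold changes carry a prior count of 0.125, and their SE is the absolute value divided by the square root of F. CPM is TMM-scaled, and SDs are over 2 libraries. TPM was used for levels between genes, and FPKM only to repeat the receptor ratio. The code was checked on simulated counts. Replicates differed by more than counting noise (chi-square per degree of freedom 46.2 for U0126 and 15.5 for control), so none was counted once.

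Alternatives were RLE factors, library totals, 2 other filters, DESeq2, limma-voom, a replicate block and leaving out each library. The members and lists were chosen with earlier results of these data known. Named genes were the 6 members, up to 4 called genes per pathway list with the smallest adjusted p, the most abundant gene per marker list, the ERK and proliferation checks, and the 2 nearest profiles per member. Crkl, Pecam1 and Itgam were not matched by symbol. The sum and count of the Schwann cell marker list are not reported here. Depth limits Pdgfb and the low receptors.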

Additional observations from a re-analysis of the deposited data

How the results depend on the processing

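Of the PDGF genes, Pdgfc and Pdgfd kept their call and direction in all 11 alternatives. With all 4 libraries, a single PDGF call differed: Pdgfra passed under DESeq2 (log2 fold change 0.39). Leaving out 1 library at a time, the number of PDGF genes called ran from 2 to 6, and that of all genes from 899 and 913 without a control library to 4644 without U0126 replicate 2, against 2792 with all 4. Log2 fold changes in these fits ran from 0.049 to 0.30 for Pdgfa, from -8.13 to -1.74 for Pdgfb, from 0.16 to 0.60 for Pdgfra and from 0.38 to 0.53 for Pdgfrb. The lone library of a group was assumed to vary like the other group. In the same fits the pathway list counts ran from 2 to 6 (ligand processing, binding and co-receptors), 0 to 4 (adaptors and effectors), 0 to 5 (phosphatases, ubiquitin ligases and scaffolds), 0 to 2 (other receptors) and 0 to 6 (transcription factors). The counts of 0 by edgeR came without control replicate 1 or 2, where at an unadjusted p under 0.05 these 4 lists held 1, 2, 2 and 3 genes and 3, 1, 1 and 3 genes; DESeq2 was not run on 3 libraries. The phosphatase and scaffold count was 2 with library totals alone, 3 with DESeq2 and 2 with limma-voom, against 1, and the transcription factor count was 1 with DESeq2, against 2; the cause was not tested. Over the same fits, log2 fold changes of genes near 0 ran on both sides of it, from -0.14 to 0.10 for Col1a1, from -0.25 to 0.058 for St14 and from -0.56 to 0.68 for Plau, which passed at 0.68 alone. Pdgfb has no value under the filter of at least 1 CPM in 2 libraries, because it did not pass it.

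The replicate numbers are not said to mark a shared animal or day, and the deviations of same-numbered libraries from their group means were uncorrelated (r = -0.03 across genes). With the replicate block, 2371 genes were called, 1 adaptor or effector and 3 phosphatase or scaffold genes among them, and the PDGF calls did not change.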

Other observations

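Pdgfrl encodes a secreted protein that resembles the extracellular part of the PDGF receptors and was picked with its values known. It was at 242 and 187 CPM with U0126, against 98.8 and 93.8 CPM in the controls. Both U0126 libraries stood well above the controls, a 2.23-fold rise (log2 fold change 1.16 ± 0.13 SE; edgeR adjusted p = 0.00156) that held in all 11 alternatives (0.96 to 1.32). On the TPM scale it was at 283 and 222 TPM with U0126, against 119 and 117 TPM in the controls. In the controls this lay within the range of Pdgfa (115 and 121 TPM), and with U0126 above it (119 and 141 TPM).

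Csf1r, the receptor gene that follows Pdgfrb on chromosome 18 after 8106 bases on the same strand, had 13 and 9 counts with U0126, against 19 and 18 counts in the controls. Its log2 fold change of -0.58 did not pass (edgeR adjusted p = 0.494), beside 0.46 for Pdgfrb. Pdgfra has Gsx2 as its nearest annotated gene at higher coordinates, which had 0 counts in all 4 libraries.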
